A study of Homo sapiens with 12 samples.

Results

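The members were ChIP-seq intervals that began within 2 Mb of a chromosome's start or stopped within 2 Mb of its end, on chromosomes 1 to 22 without 19 and 20. The end of a chromosome was taken as the outermost position reached by an interval in any of the 4 deposited lists. In all, 4538 of the 130339 intervals on these 20 chromosomes were members, from lists that held 164693 intervals together. The HepG2 anti-HOXA13 list had 2373 members of 62920 intervals, HepG2 anti-HA 961 of 31208, Huh7 anti-HOXA13 320 of 9339 and Huh7 anti-HA 884 of 26872. They lay on 35 ends. The short-arm ends of the acrocentric chromosomes 13, 14, 15, 21 and 22 held no interval within the limit in any list. Stretches of at least 1 Mb with no interval in any list were taken as stand-ins for assembly gaps. These 5 ends were therefore left out of the lengths, and their emptiness is not a result.

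Human chromosomes close with telomere repeats. Inward of these lie subtelomeric blocks whose sequence is often nearly identical between several chromosomes, and inward of those many ends are rich in genes and in GC. Reads from nearly identical blocks cannot be placed with certainty, and sequence that is collapsed in a reference gathers extra reads in input chromatin too. HOXA13 is a homeodomain transcription factor best known for patterning the distal limb and the genital tract, and it is little expressed in normal adult liver.

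HepG2 and Huh7 are human liver-cancer lines, and the study's title concerns HOXA13 overexpression and chromosomal instability. Untagged cells of each line were precipitated with an antibody to HOXA13. Stably transfected cells that carried HA-tagged HOXA13 were precipitated with an antibody to the HA tag, so the antibody and the transfected state change together and cannot be told apart. Each of the 4 ChIP libraries had its own input, the 4 IgG libraries were not analysed here, and each condition had 1 library, so no test between conditions was made. The sources used here do not give the promoter that drove the tagged gene or whether the transfected cells were clones.

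The labels state 50 M reads per sample. Each interval carries the authors' values at its summit: a fold (ChIP pileup plus 1, divided by input-based expected pileup plus 1), a −log10 p and a −log10 q. An interval is called strong at a −log10 q of 5 or more. It is said to have raised input where its expected pileup was over 3 times the list's background, which was 1.73 for the HOXA13 antibody and 2.62 for the HA antibody in HepG2, and 2.6 and 2.61 for them in Huh7. Ranges in brackets are exact 95% intervals and cover counting error only. Most members were weak: the median member stood on 7 ChIP fragments with anti-HOXA13 and 17 with anti-HA among HepG2 members, and on 15 and 14 among Huh7 members. Coordinates are GRCh37, 1-based, and no gene, exon or UTR is tied to an interval, because a GRCh37 annotation was not used here.

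With the 2 Mb limit and all intervals counted, each of the 4 lists was denser at the ends than in the rest of the same chromosomes. HepG2 anti-HOXA13 held 33.9 intervals per Mb at the ends and 24.1 in the rest, a ratio of 1.41 (1.35 to 1.47). HepG2 anti-HA held 13.7 and 12, a ratio of 1.14 (1.07 to 1.22). Huh7 anti-HOXA13, the sparsest list, held 4.57 and 3.59, a ratio of 1.27 (1.14 to 1.42). Huh7 anti-HA held 12.6 and 10.3, a ratio of 1.22 (1.14 to 1.31). The ends made up 70 Mb and the rest 2512 Mb, after stretches of at least 1 Mb with no interval in any list were taken out. The direction turned in 3 lists under other settings: without raised input HepG2 anti-HA gave 0.922 (0.852 to 0.996), and with a limit of 5 Mb Huh7 anti-HA gave 0.948 (0.903 to 0.996) and Huh7 anti-HOXA13 0.990 (0.912 to 1.07).

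The ratios hid different profiles along the arms. In HepG2 anti-HOXA13 the outer 0.5 Mb held 34.3 intervals per Mb (31.6 to 37.1) and the next 1.5 Mb 33.8, but the flank from 2 to 10 Mb still held 32.7 and only the chromosome beyond 10 Mb fell to 23. Pooled over the ends, the raised density in that list therefore ran through the outer 10 Mb. Against the pooled 2 to 10 Mb flank the ratio of the ends was 1.04 (0.989 to 1.08). That flank included 87.25 intervals per Mb on 16p and 89.1 on 16q. Taken end by end, 22 of the 35 ends were denser than their own flank, with a median ratio of 1.14. Huh7 anti-HOXA13 showed the steepest profile. Its outer 0.5 Mb held 7.09 intervals per Mb (5.89 to 8.45), the next 1.5 Mb 3.73 (3.23 to 4.29), the flank 2.89 and the rest beyond 10 Mb 3.68. Without the outer 0.5 Mb its ratio was 1.04 (0.898 to 1.2), so the excess over the rest lay in the outermost 0.5 Mb. Against the flank (2.69 to 3.09) the next 1.5 Mb still stood higher. The 4p end held 21 of the 124 intervals in the outer 0.5 Mb, and without 4p that part held 6.06 per Mb (4.95 to 7.35). Huh7 anti-HA held 12.2 (10.6 to 14) and 12.8 in these parts of the ends against 7.48 in the flank and 10.7 beyond, so its members stood above a flank that was itself sparse. HepG2 anti-HA varied least, at 14.7 (13 to 16.7), 13.4, 11.6 and 12.1.

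**Figure D1:**
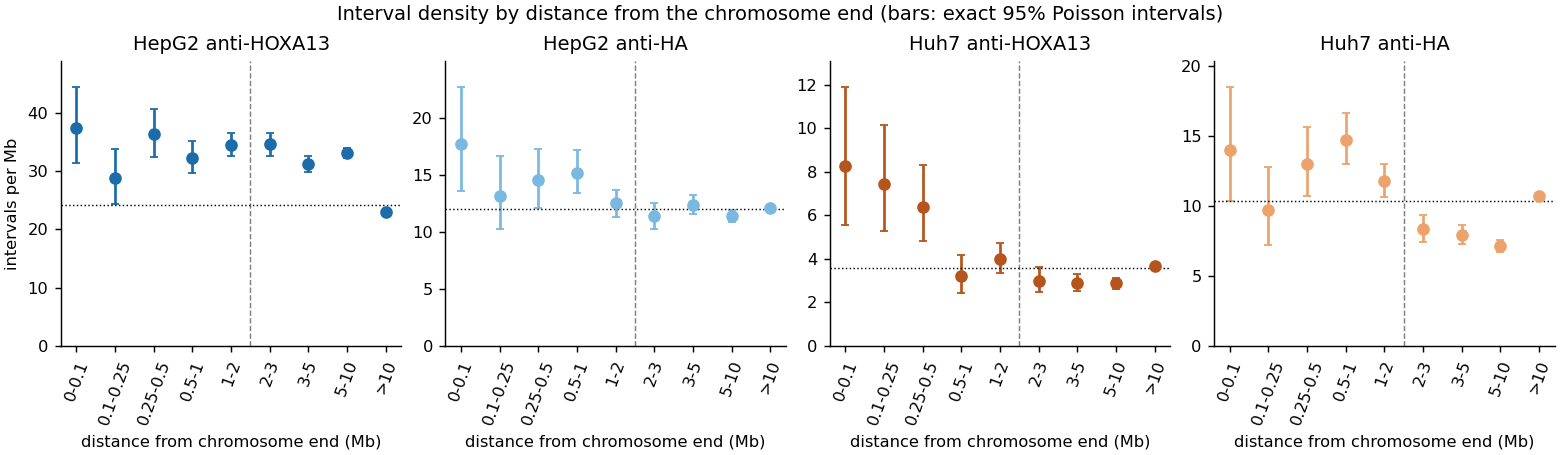
Intervals per Mb (vertical axis) by distance from the chromosome end in Mb (horizontal axis) in each list, with exact 95% Poisson intervals; the dotted line is the density of the rest and the dashed line the 2 Mb limit. HepG2 anti-HOXA13 stays near 33 per Mb out to 10 Mb, whereas Huh7 anti-HOXA13 falls from 8.29 per Mb in the outer 0.1 Mb to 3.20 between 0.5 and 1 Mb.

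The 2 Mb limit itself did not divide high from low folds. In HepG2 anti-HOXA13 the 134 members from 1.9 to 2 Mb had a median fold of 2.81, and the 138 intervals from 2 to 2.1 Mb one of 2.90. The matching medians were 2.76 and 2.91 in HepG2 anti-HA, from 45 members inside and 30 intervals outside. The Huh7 medians were 2.71 inside (16 members) and 2.69 outside (14 intervals) for HOXA13. For HA in Huh7 they were 2.49 inside (48 members) and 2.82 outside (18 intervals). In the anti-HA lists the counts thus fell across the limit. The members just inside stood at 3.30-fold on 4q, 2.83-fold on 6q, 2.35-fold on 17p and 2.44-fold on 15q, in the order HepG2 anti-HOXA13, HepG2 anti-HA and the same antibodies in Huh7. The nearest intervals outside stood at 3.30-fold on 2p, 3.91-fold on 6p, 1.69-fold on 16p and 1.98-fold on 11p, in the same order of lists.

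Raised input underlay a larger share of intervals at the ends than in the rest in each list, clearly so in 3 of the 4. It underlay 309 of 961 HepG2 anti-HA members (32.2%, 29.2 to 35.2%) against 16.1% of the rest, where 16.6% of all intervals on the 20 chromosomes had it. In Huh7 anti-HA it underlay 181 of 884 (20.5%, 17.9 to 23.3%) against 7.10% of the rest and a background of 7.54%. In Huh7 anti-HOXA13 it underlay 39 of 320 (12.2%, 8.81 to 16.3%) against 8.28% of the rest and a background of 8.42%. In HepG2 anti-HOXA13, whose background was 1.53%, it underlay 60 of 2373 (2.53%, 1.93 to 3.24%) against 1.49% of the rest, and in that list it reached 5.00% (3.40 to 7.06%) in the outer 0.5 Mb. The exact intervals of ends and rest did not overlap in HepG2 anti-HOXA13, HepG2 anti-HA or Huh7 anti-HA, and in Huh7 anti-HOXA13 they overlapped (8.81 to 16.3% and 7.72 to 8.87%).

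Raised input moved with part of the density excess. Intervals with raised input were denser at the ends by 3.52 times (3.01 to 4.10) in Huh7 anti-HA and 1.87 times (1.32 to 2.59) in Huh7 anti-HOXA13. In HepG2 the ratio was 2.38 (1.80 to 3.10) for anti-HOXA13 intervals and 2.28 (2.03 to 2.56) for anti-HA intervals. Among intervals without it, the ends were below the rest in HepG2 anti-HA, at a ratio of 0.922 (0.852 to 0.996), and near it in Huh7 anti-HA, at 1.05 (0.968 to 1.13). In the anti-HOXA13 lists the ratio without raised input was 1.39 (1.33 to 1.45) in HepG2 and 1.22 (1.08 to 1.37) in Huh7.

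Strong intervals were scarce among the members of 3 lists and frequent in HepG2 anti-HA. Of the 320 Huh7 anti-HOXA13 members, 17 were strong (5.31%, 3.12 to 8.37%) against 2.11% (1.82 to 2.42%) of the rest and 2.22% of all. In Huh7 anti-HA, 16 of 884 were strong (1.81%, 1.04 to 2.92%) against 0.327% (0.261 to 0.404%) of the rest and 0.376% of all. Both Huh7 lists therefore held a larger share of strong intervals at the ends. Strong intervals without raised input made up 14 of the 320 Huh7 anti-HOXA13 members (4.38%, 2.41 to 7.23%) against 1.82% of the rest. They made up 6 of the 884 Huh7 anti-HA members (0.679%, 0.249 to 1.47%) against 0.165% of the rest. In HepG2 anti-HA 190 of 961 were strong (19.8%, 17.3 to 22.4%), against 22.1% of the rest and 22% of all, so its ends were not richer in them. In HepG2 anti-HOXA13, where 0.477% of all intervals were strong, 16 of 2373 members were (0.674%, 0.386 to 1.09%) against 0.469% of the rest.

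Part of the HepG2 anti-HOXA13 count came from 1 stretch. Of its 16 strong members, 13 had raised input (81.3%, 54.4 to 96.0%, against 85.6% of strong intervals in the rest), and 6 lay on 1p between 564468 and 569514, a stretch that GRCh37 carries as a nuclear copy of mitochondrial DNA. There the expected pileup ran from 86.2 to 158 in Huh7 anti-HA, from 65.2 to 137 in HepG2 anti-HA and from 54.6 to 102 in HepG2 anti-HOXA13, and folds stayed between 1.33 and 2.57. Without the stretch the strong share of HepG2 anti-HOXA13 members was 0.422% (0.203 to 0.776%). The stretch also held 7 of the 190 strong HepG2 anti-HA members and 3 of the 16 strong Huh7 anti-HA members. Without it their strong shares were 19.2% (16.7 to 21.8%) and 1.48% (0.792 to 2.52%). Huh7 anti-HOXA13 held no interval there.

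At 5-fold or more, HepG2 anti-HA was sparser at the ends than in the rest. It had 60 such members (6.24%, 4.80 to 7.96%), against 11.6% of the rest and 11.4% of all, a density ratio of 0.613 (0.467 to 0.791). Huh7 anti-HOXA13 had 11 (3.44%, 1.73 to 6.07%) against 1.59% (1.34 to 1.87%) of the rest and 1.65% of all, a density ratio of 2.76 (1.35 to 5.09). HepG2 anti-HOXA13 and Huh7 anti-HA had 3 each, where 0.0858% and 0.0781% of all intervals reached it. In HepG2 anti-HOXA13 this was 0.126% (0.0261 to 0.369%) against 0.0842% of the rest, a density ratio of 2.11 (0.421 to 6.53). In Huh7 anti-HA it was 0.339% (0.0700 to 0.989%) against 0.0693% of the rest, a density ratio of 5.98 (1.13 to 20.5).

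The highest members of HepG2 anti-HA stood well above those of the other lists. An interval on 5p, 1227680 to 1228172, led with 21.5-fold (17.8 to 25.8), from a pileup of 116 fragments where 4.44 was expected. Next came 18p, 1624508 to 1625001, at 18.3-fold, 9p, 673647 to 674092, at 15.8-fold, 3q, 197607399 to 197607893, at 14-fold, and 11q, 134612627 to 134613151, at 13.8-fold. None of the 5 had raised input, and of these only the 18p interval met another list, Huh7 anti-HA at 3.18-fold. Among the 20 highest HepG2 anti-HA members, 3 met Huh7 anti-HA and 0 met either anti-HOXA13 list. These counts were near the general share, since HepG2 anti-HA intervals of at least 5-fold in the rest met Huh7 anti-HA in 11.8% of cases, HepG2 anti-HOXA13 in 1.54% and Huh7 anti-HOXA13 in 0.826%.

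Huh7 anti-HOXA13 was led by 12q, 133779114 to 133781185, at 7.94-fold (5.59 to 11). This interval was 2072 bp wide, lay 60.6 kb from the end and covered the second highest HepG2 anti-HOXA13 member, 133779619 to 133780113, at 5.29-fold (3.05 to 8.63). The next were 8q, 144732472 to 144732937, at 6.04-fold, 4p, 265262 to 265888, at 5.91-fold, 4p, 436292 to 437921, at 5.80-fold, and 8q, 146066986 to 146068254, at 5.40-fold. The second of the 4p intervals covered a HepG2 anti-HOXA13 member at 4.91-fold (2.83 to 8.02), 436632 to 436886. The 11 members of at least 5-fold lay on 12q, 4p, 8q and 9q with 2 each and on 11p, 9p and 22q with 1 each. Of these 11, 4 met HepG2 anti-HOXA13 (36.4%, 10.9 to 69.2%), where 17 of 143 such intervals in the rest did (11.9%, 7.08 to 18.4%). None met an anti-HA list of either line, and in the rest only 5.59% met that of HepG2 and 0.699% that of Huh7, shares that 0 of 11 (up to 28.5%) allows.

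In HepG2 anti-HOXA13 the highest member was 11q, 134321396 to 134321595, at 5.87-fold (3.45 to 9.44) from 15 fragments, and no other list held it. The third was 2p, 442375 to 442729, at 5.14-fold, and the fifth, 15q, 102521183 to 102521350, at 4.77-fold, was the interval that set the end of chromosome 15. In Huh7 anti-HA the 5p interval from 1524178 to 1524469 led with 5.73-fold (3.75 to 8.41). It was followed by 16q, 88772779 to 88773048, at 5.33-fold, 1p, 1167102 to 1167518, at 5.30-fold, 16p, 1727967 to 1728522, at 4.92-fold, and 18p, 515132 to 515245, at 4.63-fold. The first 4 of these also had a HepG2 anti-HA interval, at 2.11-fold, 4.56-fold, 2.35-fold and 3.21-fold.

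**Figure D2:**
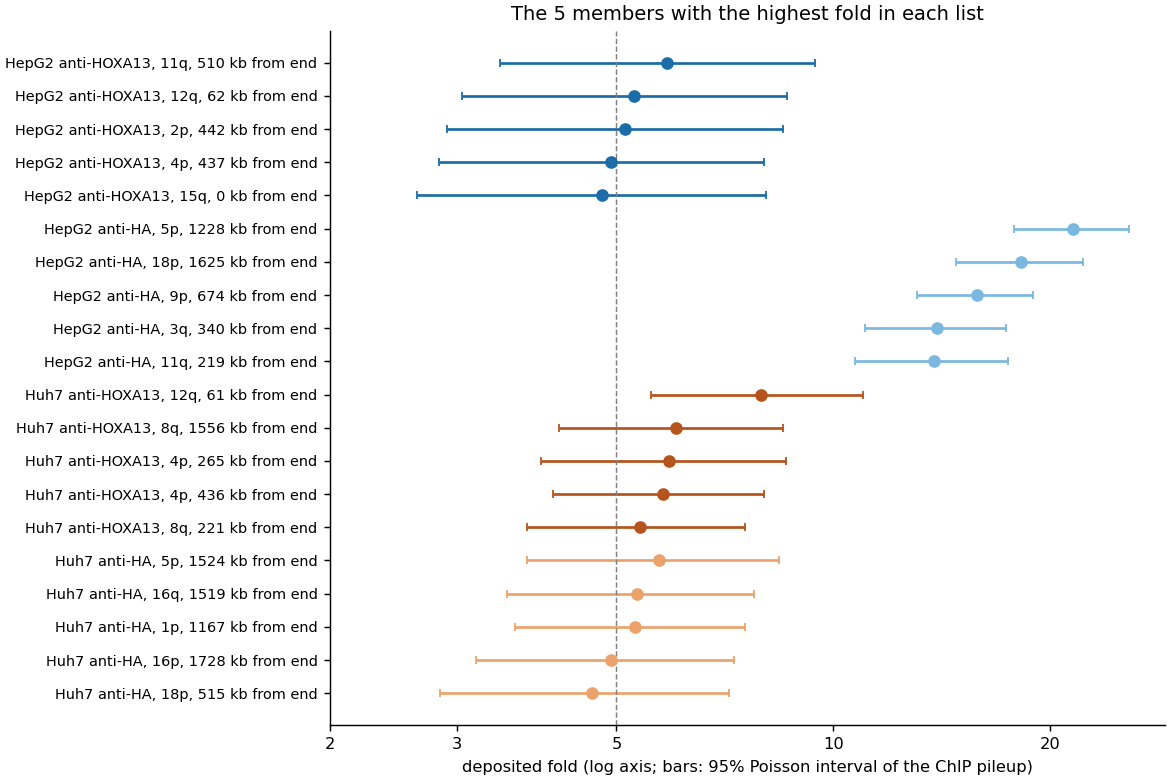
Deposited fold (horizontal log axis) of the 5 highest members of each list, named by list, arm and distance from the end, with 95% Poisson intervals of the ChIP pileup; the dashed line is 5-fold. The 5 HepG2 anti-HA members sit between 13.8 and 21.5, and those of the other lists between 4.63 and 7.94.

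Wide intervals set the Huh7 ends apart from the rest of the Huh7 lists. In Huh7 anti-HOXA13, 15 of 320 members were 500 bp or wider (4.69%, 2.65 to 7.61%) against 43 of 9019 in the rest (0.477%, 0.345 to 0.642%) and 0.621% of all, a density ratio of 12.5 (6.46 to 23). In Huh7 anti-HA it was 43 of 884 (4.86%, 3.54 to 6.50%) against 193 of 25988 (0.743%, 0.642 to 0.855%) and 0.878% of all, a density ratio of 8 (5.61 to 11.2). No raised input underlay 14 of the 15 and 29 of the 43, and among Huh7 anti-HA intervals without raised input the shares were 4.13% (2.78 to 5.87%) and 0.489% (0.405 to 0.585%). The HepG2 lists differed little: HepG2 anti-HA had 49 wide members (5.10%, 3.80 to 6.69%) against 4.81% of the rest and 4.82% of all, and HepG2 anti-HOXA13 had 8 (0.337%, 0.146 to 0.663%) against 0.253% of the rest and 0.256% of all.

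The wide intervals of the Huh7 lists lay at different ends. Those of Huh7 anti-HOXA13 gathered at 6 ends, with 7 on 4p, 3 on 12q, 2 on 8q and 1 each on 11p, 1q and 9p. Those of Huh7 anti-HA were spread over 20 ends, led by 17q and 1p with 5 each and 22q with 4. Without 4p the wide share of Huh7 anti-HOXA13 members was 2.76% (1.2 to 5.36%), and without 4p, 8q and 12q it was 1.17% (0.241 to 3.37%). The Huh7 anti-HA share without these 3 ends was 5.22% (3.76 to 7.04%).

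The ends of 4p, 8q and 12q carry zinc finger genes, which encode DNA-binding proteins, many of them repressors of transposable elements. In the RefSeq table for GRCh38.p14, 7 of the 20 outermost protein-coding genes of 12q had zinc finger names (ZNF268, ZNF10, ZNF891, ZNF140, ZNF84, ZNF26 and ZNF605). On 8q there were 6 (ZNF16, ZNF250, ZNF7, ZNF517, ZNF34 and ZNF251) and on 4p 5 (ZNF595, ZNF718, ZNF732, ZNF141 and ZNF721), and no other end had more than 2. The table gives the order of genes from the end only, so 20 genes can reach past 2 Mb or stop short of it. The 3 ends were singled out after their values were seen, so the shares below are no test of a link with zinc finger genes. In Huh7 anti-HOXA13, 4p held 30 members, 8q 17 and 12q 16. The ends of 12p, 3q and 16q held 20, 19 and 17, with 0, 0 and 1 zinc finger names. They make up 8.57% of the length of the ends. In Huh7 anti-HOXA13 they held 63 of the 320 members (19.7%, 15.5 to 24.5%), 39 of the 124 in the outer 0.5 Mb, 7 of the 17 strong members, 6 of the 11 of at least 5-fold and 12 of the 15 wide ones. Apart from the outer 0.5 Mb, these counts cover the whole 2 Mb, whether or not a zinc finger gene is near. The 8q member at 6.04-fold, for example, lay 1556 kb from the end. In the other lists the 3 ends held 8.64% (7.54 to 9.84%) of members in HepG2 anti-HOXA13, 9.37% (7.60 to 11.4%) in HepG2 anti-HA and 13.3% (11.2 to 15.8%) in Huh7 anti-HA. In the outer 0.5 Mb they held 71 of 600 (11.8%, 9.36 to 14.7%), 21 of 258 (8.14%) and 23 of 214 (10.7%), in this order of lists. Of the wide members they held 2 of 8, 9 of 49 (18.4%, 8.76 to 32.0%) and 3 of 43. Of the strong members they held 2 of 16, 18 of 190 and none of 16. At 5-fold or more they held 1 of 3, 7 of 60 and none of 3. Without these ends the Huh7 anti-HOXA13 density ratio was 1.12 (0.984 to 1.27), and its outer 0.5 Mb held 5.31 intervals per Mb (4.24 to 6.57).

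Density differed widely from end to end, and differently in the lines. In HepG2 anti-HOXA13 the 2p end held 221 intervals, 2.30 times (2.01 to 2.63) the density of the rest of chromosome 2, followed by 6q with 147, 10q with 103 and 1q and 5p with 97 each. The fewest lay on 17q, with 21, and 3p, with 25. The ends of chromosome 16 were below the rest of that chromosome, at ratios of 0.296 (0.212 to 0.402) on 16p and 0.375 (0.280 to 0.493) on 16q, where the rest held 69.3 intervals per Mb. In HepG2 anti-HA the highest ends by count were 2p with 62, 6p and 6q with 42 each and 17q with 41, and 36 of the 41 on 17q had raised input. Against the rest of their chromosomes these ends stood out little. The ratio was 1.05 (0.757 to 1.43) on both 6p and 6q, 1.35 (0.960 to 1.84) on 17q and 1.32 (1.007 to 1.69) on 2p. The highest ratio in this list was 1.95 (1.35 to 2.73), on 9q with 35 intervals. The lowest were 3p with 3 and 11q with 8.

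In Huh7 the 2p end was almost empty, with 0 intervals in the anti-HOXA13 list, which allows up to 0.430 times the density of the rest of that chromosome, and 3 in the anti-HA list, a ratio of 0.122 (0.0252 to 0.357). Its flank from 2 to 10 Mb was sparse too, so this was not particular to the end. That flank held 1.625 and 3.5 intervals per Mb in these lists, against 4.30 and 12.3 in the rest of the chromosome. The 4p end led Huh7 anti-HOXA13 with 30 intervals, 6.29 times (4.19 to 9.11) the rest of chromosome 4, and 21 of the 30 lay in its outer 0.5 Mb. It was followed by 12p with 20, 3q with 19 and 8q and 16q with 17 each, while 3p and 10p held 0 as 2p did. The flank of 10p was also sparse, at 0.5 per Mb against 1.48 in the rest of chromosome 10. The flank of 3p was not, at 4.875 against 4.79 in the rest of chromosome 3. Huh7 anti-HA was led by 1p and 8q with 55 each and by 9q, 17p and 22q with 48 each, and raised input underlay 32 of the 48 on 22q. The 4q end held none in Huh7 anti-HA, and 10p and 11q held 2 each. Their flanks were sparse as well, at 0.125, 2 and 2 intervals per Mb, against 6.73, 5.28 and 8.96 in the rest of their chromosomes.

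**Figure D3:**
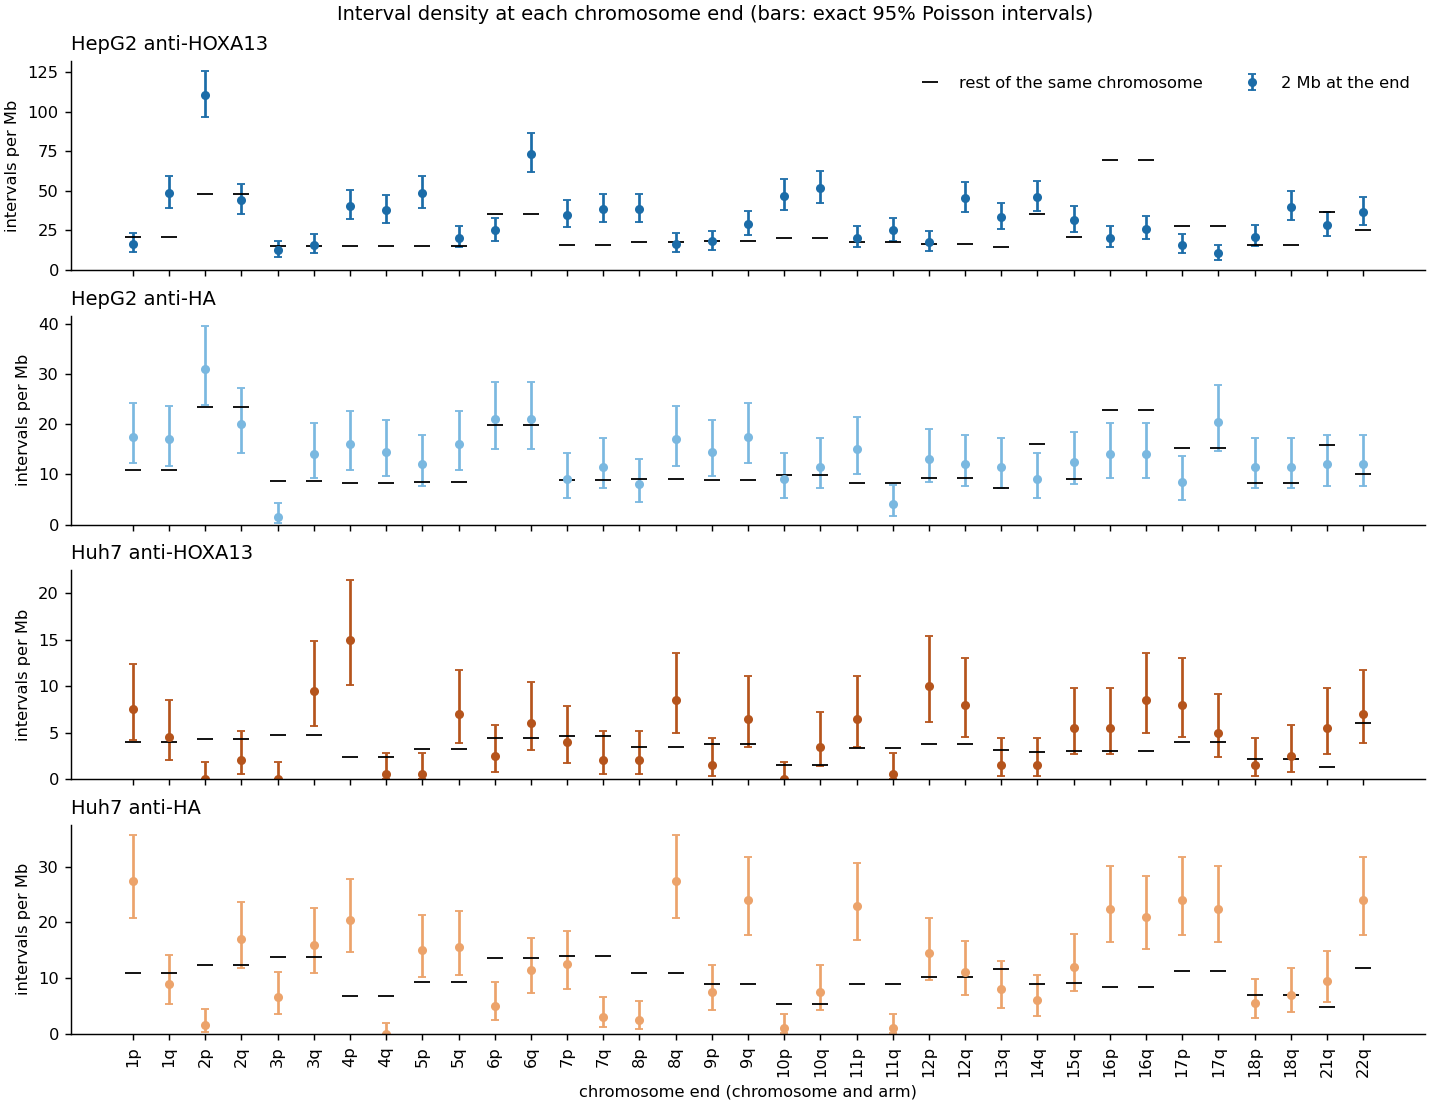
Intervals per Mb (vertical axis) at each of the 35 ends (horizontal axis, chromosome and arm) in the 4 lists, with exact 95% Poisson intervals; black dashes give the rest of the same chromosome. The 2p end is highest in both HepG2 lists, at 110.5 and 31.0 per Mb, and holds 0 and 1.5 per Mb in the Huh7 lists.

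The excess was not shared by all ends. The exact interval of the ratio to the rest of the same chromosome lay above 1 at 19 ends and below 1 at 5 in HepG2 anti-HOXA13, at 12 and 6 in HepG2 anti-HA, at 11 and 4 in Huh7 anti-HOXA13, and at 13 and 8 in Huh7 anti-HA. The median end held 63, 26, 9 and 23 intervals in these lists. Counts over the 35 ends ran together in the Huh7 lists, with a Pearson r of 0.72 and a Spearman rho of 0.76, although the lists came from different cells, antibodies and inputs. In HepG2 they gave an r of 0.44 and a rho of −0.0075, and 2p led both lists. Between the lines the sign depended on the HepG2 list. HepG2 anti-HOXA13 gave a rho of −0.42 with Huh7 anti-HA and −0.34 with Huh7 anti-HOXA13, whereas HepG2 anti-HA gave 0.38 and 0.32. The points share the chromosomes of a cell line and the length of each end, and the correlations are descriptions.

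The anti-HA lists met each other more often at the ends than elsewhere. Of the 884 Huh7 anti-HA members, 205 overlapped a HepG2 anti-HA interval by at least 1 bp (23.2%, 20.4 to 26.1%), against 8.04% (7.71 to 8.38%) of the rest and 8.54% of all. In the other direction, 198 of 961 HepG2 anti-HA members met Huh7 anti-HA (20.6%, 18.1 to 23.3%), against 6.66% (6.38 to 6.94%) of the rest and 7.08% of all. HepG2 anti-HA was denser at the ends by 1.14 times, and Huh7 anti-HA members had a median width of 170 bp against 147 bp in the rest. How much of the difference in overlap goes with density and width was not tested.

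Raised input and overlap moved together. Huh7 anti-HA intervals with raised input met HepG2 anti-HA in 34.3% (27.4 to 41.7%) of cases at the ends and 33.0% (30.8 to 35.2%) in the rest, so within this class ends and rest lay close. Those without it did so in 20.3% (17.4 to 23.5%) and 6.13% (5.83 to 6.44%). With raised input left out of both lists, 61 of 703 members met (8.68%, 6.70 to 11%), against 3.99% (3.75 to 4.24%) of the rest. Of the 16 strong Huh7 anti-HA members 15 had a HepG2 anti-HA interval, and in the rest 68 of 85 did.

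The other pairs of lists met rarely. Huh7 anti-HOXA13 members met HepG2 anti-HOXA13 in 13 of 320 cases (4.06%, 2.18 to 6.85%), against 2.08% (1.80 to 2.40%) of the rest and 2.15% of all. With at least 50% of the Huh7 interval covered it was 4 of 320 (1.25%, 0.342 to 3.17%) against 1.18% of the rest. Wide Huh7 members can fail this setting by width, as the 2072 bp 12q interval over 495 bp does. At 1 bp, wider intervals and a denser HepG2 list can raise the share. A width of at least 500 bp was reached by 4.69% of Huh7 anti-HOXA13 members against 0.477% of the rest. HepG2 anti-HOXA13 was 1.41 times denser at the ends. Neither setting therefore decides on the difference, and how much of it goes with width and density was not tested. In the other direction, 15 of 2373 HepG2 anti-HOXA13 members met Huh7 anti-HOXA13 (0.632%, 0.354 to 1.04%), against 0.312% (0.269 to 0.360%) of the rest. HepG2 anti-HA members met the anti-HOXA13 list of the same line in 43 of 961 cases (4.47%, 3.26 to 5.98%), against 3.68% of the rest and 3.71% of all. Huh7 anti-HA members met Huh7 anti-HOXA13 in 6 of 884 cases (0.679%, 0.249 to 1.47%), against 0.635% of the rest and 0.636% of all. So at the ends the antibodies met in few places within a line, at shares near those of all intervals. In HepG2 the lists met more often with raised input. Of the 60 HepG2 anti-HOXA13 members with it, 18 met HepG2 anti-HA (30%, 18.8 to 43.2%), against 44.2% in the rest. Without it, 27 of 2313 did (1.17%), against 1.204% in the rest. Of the 16 strong members 9 did, against 206 of 284 strong intervals in the rest. The 6 strong members of the 1p stretch were among the 9.

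**Figure D4:**
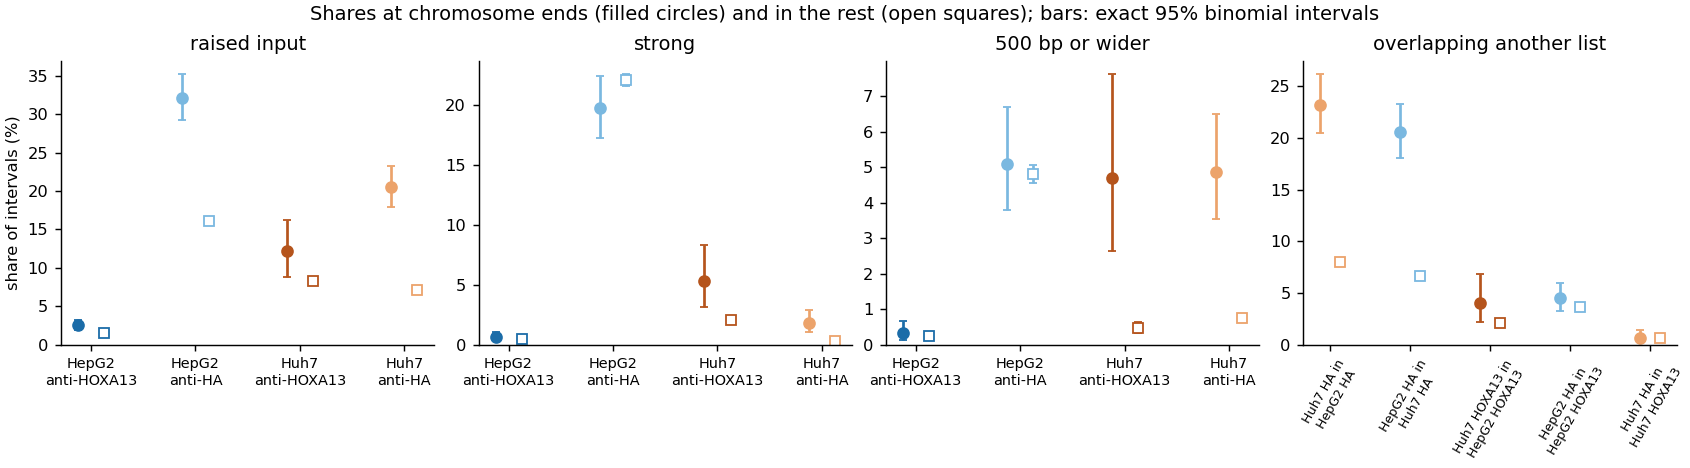
Share of intervals in percent (vertical axis) with raised input, strong, 500 bp or wider, or overlapping another list (horizontal axis, the list or pair), at the ends (filled circles) and in the rest (open squares), with exact 95% binomial intervals. The wide share at the ends is near 5% in both Huh7 lists against under 1% in the rest, and the anti-HA lists overlap in 23.2% and 20.6% of members.

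Joined across lists, the members formed 4248 regions, of which 3982 belonged to 1 list, 257 to 2, 9 to 3 and none to all 4. The largest shared class was the 189 regions of the anti-HA lists only, of which 44 had raised input in every interval, 87 in some and 58 in none. HepG2 anti-HOXA13 and HepG2 anti-HA alone shared 36 regions, the anti-HOXA13 lists 11, HepG2 anti-HOXA13 and Huh7 anti-HA 10, the Huh7 lists 6, and HepG2 anti-HA and Huh7 anti-HOXA13 5. Among the 9 regions of 3 lists, 6 were the 1p stretch described above. Of the other 3, named after they were seen, 14q, 107119873 to 107120263, 82.4 kb from the end, had no raised input and stood at 3.21-fold in Huh7 anti-HOXA13, and in HepG2 at 3.16-fold with the same antibody and 2.57-fold with anti-HA. The remaining regions were 12p, 94147 to 94598, and 22q, 50467442 to 50467748, and each had raised input in at least 1 list.

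Counting those of 3 lists too, 196 regions were held by both anti-HA lists, on 32 of the 35 ends. They were most frequent on 1p with 19, 8q and 17q with 16 each, 5q with 13 and 16p with 12, and 3p, 4q and 6p held none. The median fold was 2.78 in HepG2 (1.52 to 18.3, lowest and highest) and 2.65 in Huh7 (1.33 to 5.73), and 110 of the 196 were higher in HepG2. The folds of the lines were loosely related over regions, with a Pearson r of log2 folds of 0.22 and a Spearman rho of 0.21. In the 58 regions with no raised input the medians were 3.10 and 2.95 and r was 0.14, and in the 50 with raised input throughout they were 2.47 and 2.19 and r was 0.56. By mean rank of fold the leading regions were 10q, 134350292 to 134351342, with 7.18-fold in HepG2 against 3.90-fold in Huh7, 22q, 50246887 to 50247414, with 5.40-fold and 4.04-fold, and 16q, 88772715 to 88773077, with 4.56-fold and 5.33-fold. The 22q region had raised input in at least 1 list and the others had none.

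**Figure D5:**
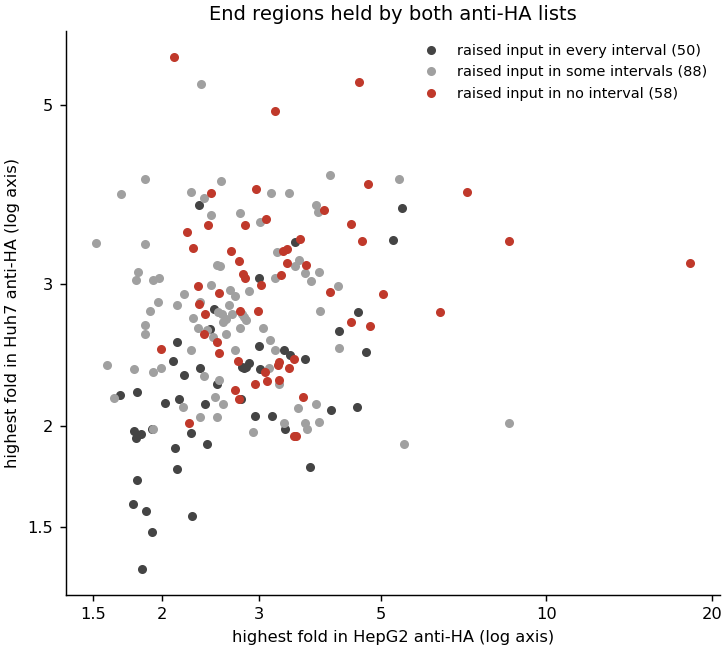
Highest deposited fold in HepG2 anti-HA (horizontal log axis) and in Huh7 anti-HA (vertical log axis) of the 196 end regions held by both lists, coloured by raised input in every interval (50), in some (88) or in none (58). The cloud has little slope, and the region at 18.3-fold in HepG2, on 18p, stands at 3.18-fold in Huh7.

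The 11 regions held by the anti-HOXA13 lists only lay on 12q with 3, 4p with 2, and 11p, 13q, 14q, 15q, 4q and 9p with 1 each. After the leading 12q and 4p regions given above came 12q, 133634125 to 133635325, at 5.01-fold in Huh7 against 3.67-fold in HepG2, and 9 of the 11 had no raised input. For the antibodies in HepG2 the leading shared regions were 12p, 1486892 to 1487204, at 6.23-fold with anti-HA against 3.30-fold with anti-HOXA13, 4q, 191001184 to 191001564, at 3.31-fold against 4.77-fold, and 9q, 139355588 to 139355775, at 3.45-fold against 3.30-fold. For the antibodies in Huh7 the leading regions were 21q, 47645228 to 47645486, at 3.27-fold with anti-HA against 2.96-fold with anti-HOXA13, 5q, 179706043 to 179706406, at 2.77-fold against 3.21-fold, and 7p, 792007 to 792134, at 2.47-fold against 3.56-fold. HepG2 anti-HA and Huh7 anti-HOXA13 met first on 17q, 79367745 to 79368001, at 2.58-fold and 3.38-fold, and next on 3q, 197694289 to 197694677, at 5.66-fold and 2.06-fold, and then on 6q, 169490784 to 169491110, at 2.51-fold and 2.76-fold. HepG2 anti-HOXA13 and Huh7 anti-HA met first on 5p, 754535 to 754724, at 3.94-fold and 2.50-fold, next on 12q, 133309018 to 133309293, at 4.76-fold and 2.40-fold, and then on 4p, 250455 to 250634, at 2.48-fold and 3.90-fold.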

How the data were processed

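The submitters' processing notes name BWA and MACS2, with no versions or settings. They also name GRCh38, but the lists use the sequence names of GRCh37 with decoy, so coordinates are printed as GRCh37. Per the file names, each list compares a single ChIP with input from matching cells. The deposited columns were a score from the p-value, the fold (a ratio of pileups), −log10 p, −log10 q, and another whole number, the summit's offset. The authors' deposited lists were limited at a p of 0.01.

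ChIP and expected pileups were solved from fold and p with MACS2's published formulas for at least 99.99% of intervals, after a ChIP scale of 0.812 was found for Huh7 anti-HOXA13. Shares carry Clopper-Pearson, densities Poisson and ratios conditional binomial intervals. Named regions were the 5 highest members per list, the 3 leading regions per pair of lists by mean rank of fold, up to 6 of 3 lists, the 4 densest and 2 sparsest ends, and the neighbours of the limit. The members and lists were chosen with earlier results of these data known. The comparison with 2 to 10 Mb, ends without the outer 0.5 Mb, widths, zinc finger names and ends left out were chosen after seeing the data. No sequence was used here. Scripts (Python 3.11.15; scipy 1.17.1, numpy 2.4.6, matplotlib 3.10.9, pandas 2.3.3) were tested on simulated data.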

Additional observations from a re-analysis of the deposited data

Results flagged for a closer look

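Chromosomes outside the comparison also held intervals near their ends. On chromosome 19 the ends held 64 intervals with anti-HOXA13 and 61 with anti-HA in HepG2, and 48 and 71 with these antibodies in Huh7. On chromosome 20 they held 294, 77, 20 and 58, and on chromosome X 75, 24, 11 and 16, in the same order. No control peak list stands beside these counts.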

How the results depend on the processing

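The density ratio of ends to rest turned below 1 in HepG2 anti-HA without raised input (0.922), and with a window of 5 Mb in Huh7 anti-HOXA13 (0.990) and Huh7 anti-HA (0.948). In HepG2 anti-HOXA13 it was 1.69 at a −log10 q of at least 1.3, 2.02 for strong intervals, 1.31 over the full length, 1.54 as the median of the chromosomes and 1.04 against the 2 to 10 Mb flank. In HepG2 anti-HA it was 1.24 at 1 Mb, 1.06 at 5 Mb, 1.02 for strong intervals and 1.06 over the full length. In Huh7 anti-HOXA13 it was 1.43 at 1 Mb, 2.19 at a −log10 q of at least 1.3, 3.21 for strong intervals, 1.58 against the flank and 1.04 without the outer 0.5 Mb. In Huh7 anti-HA it was 3.18 and 6.76 at these q limits, 1.05 without raised input, 1.14 over the full length, 1.33 as the median of the chromosomes, 1.13 after joining within 1 kb and 1.69 against the flank. Leaving out each chromosome in turn gave 1.35 to 1.52, 1.11 to 1.2, 1.19 to 1.36 and 1.16 to 1.28 in the order above. The overlap of Huh7 anti-HA members with HepG2 anti-HA was 17.2% at a 50% overlap and 8.68% without raised input. The causes were not tested. No paired analysis was possible because each condition had 1 library. The median member rests on 7 to 17 fragments, which limits each fold.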
